A study of Mus musculus with 30 samples.

Results

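MBD2a was compared with MBD2aΔGR, the same protein without its glycine-arginine (GR) stretch, by poly(A) RNA-seq of neural progenitor cells (NPCs) derived in vitro from mouse ESCs. The comparison rests on the 6 libraries that labels and column names give to these lines, 3 of MBD2a (s13, s14 and s15) and 3 of MBD2aΔGR (s16, s17 and s18), out of 30 samples of the study. Both lines were *Mbd3* KO ESCs from a cross of 129 and C57BL/6 mice, carrying the biotin ligase BirA and a biotin-tagged construct that was exchanged into the same locus in each line under the CAG promoter. Their own *Mbd2* gene was intact. Each library stands for an individually derived clone. The reference groups were 3 WT and 3 *Mbd3* KO libraries. The other *Mbd3* KO lines, with MBD3a, MBD3ΔMBD, MBD2aR181C or MBD2t (3 libraries of 1 clone), entered the shared fit, which has 24 RNA libraries in all. P-values of the shared fit measure a spread pooled over 8 lines, between clones in each line except MBD2t.

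MBD2 and MBD3 are alternative subunits of the NuRD complex, which joins a chromatin remodeler to histone deacetylases and is required when ESCs leave pluripotency. The MBD domain of MBD2 binds methylated CpGs, whereas that of mammalian MBD3 does not. MBD2a is the long isoform, whose N-terminal GR stretch is a substrate of arginine methyltransferases and is absent from the shorter isoform MBD2b. In the differentiation used here, retinoic acid drives ESC aggregates to radial glia-like progenitors that express *Pax6* and make neurons. The comparison asks what the GR stretch changes in a cell that has no MBD3.

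The levels of the NuRD genes in question were examined first, as CPM, counts scaled to a common library size with TMM, a correction for library composition. *Mbd2*, counted over the endogenous gene and any construct reads together, was at 87.2, 86.3 and 67 CPM in the MBD2a libraries and at 280, 451 and 700 CPM in the MBD2aΔGR libraries. The lines did not overlap, and *Mbd2* was lower in MBD2a by a log2 fold change of -2.57 ± 0.22 (SE, n = 3 per line, adjusted p = 1.66e-06, edgeR quasi-likelihood test). Against the *Mbd3* KO libraries, at 65.3, 64.2 and 70.9 CPM, the difference of MBD2a was 0.26 ± 0.21 on the log2 scale (SE, adjusted p = 0.508 in the same test), while that of MBD2aΔGR was 2.84 ± 0.22 (adjusted p = 3.55e-08). The MBD2aR181C libraries had 253, 256 and 325 CPM of *Mbd2* and the MBD2t libraries 335, 356 and 340 CPM. How much of each construct's RNA was counted over *Mbd2* is not given in the sources used here, so these counts do not give the amount of construct RNA or protein in either line. For protein, the paper reports equal levels of MBD2a and MBD2aΔGR by Western blot of the ESC lines, before differentiation. The part of the difference in *Mbd2* counts in the results that follow was not tested.

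*Mbd3* was at 71, 70.8 and 36.4 CPM in MBD2a and at 45.8, 42 and 86.4 CPM in MBD2aΔGR, against 155, 149 and 157 CPM in WT. The lines overlapped, with a log2 fold change of 0.03 ± 0.27 (SE, adjusted p = 0.942, edgeR quasi-likelihood test). The *Mbd3* KO libraries had 34.2, 73.8 and 69.1 CPM, so that reads from the disrupted gene remained in every KO-derived library.

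**Figure D1:**
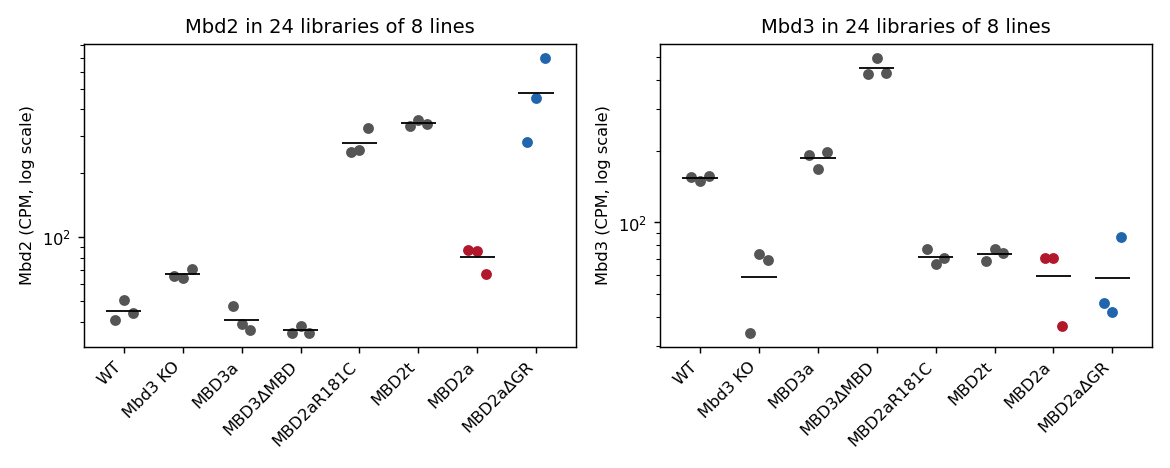
*Mbd2* and *Mbd3* in CPM (log axes) in each of the 24 libraries (points), with the mean of each line as a bar. The 3 MBD2a libraries (red) sit at 67 to 87.2 CPM of *Mbd2*, beside the *Mbd3* KO libraries, and the 3 MBD2aΔGR libraries (blue) at 280 to 700 CPM, while both lines stay below WT for *Mbd3*.

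Totals of the 6 libraries lay between 31875299 and 38994029 counts, where 3 counts correspond to 0.0765 to 0.0921 CPM. One library of each line stood apart. Between s16 and s17, 207 genes differed by over 4-fold, but 1264 did between s16 and s18 and 756 between s17 and s18. Within MBD2a, 260 genes differed by over 4-fold between s13 and s14, against 693 and 625 in the pairs with s15. In s15 the genes of chromosome 1 were lower than in s13 and s14 by a median of 0.38 on the log2 scale (-0.377, 725 genes), and those of the other chromosomes by 0.03 (-0.0317, 12083 genes). Of the 973 genes of chromosome 1 that were tested, 20.7% were called changed, against 18.4% elsewhere. Higher shares were found on chromosomes 7 (20.8%), 15 (21.4%) and 18 (24.9%), and on Y (25%, 4 genes). The part of the chromosome-wide level of s15 in the calls on chromosome 1 was not tested.

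Of the 25400 genes in the table, 16582 passed the filter on low counts and were tested. A gene counted as changed where its adjusted p (Benjamini-Hochberg) was under 0.05 and its log2 fold change, always MBD2a minus MBD2aΔGR, over 1 in size. The edgeR quasi-likelihood test on the 24-library fit called 3080 genes (18.6%), of which 1750 were higher in MBD2a (10.6%) and 1330 lower (8.02%). The median log2 fold change of all genes tested was -0.05. In 40.6% of all genes the 3 libraries of one line did not overlap those of the other, and 2764 of the 3080 called genes were among these. A fit of the 6 libraries alone, with fewer libraries to estimate the spread, called 909 genes higher (5.88% of 15471) and 790 lower (5.11%), and 1659 genes were called in the same direction by both fits.

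The largest rises in MBD2a included genes of epithelia and trophoblast, and the largest falls genes of neural progenitors. Both were taken among genes called in both fits, with a mean of at least 1 on the log2 CPM scale and no overlap between the lines. The largest rise was that of *Krt7*, a keratin of simple epithelia and trophoblast, at 41.6, 67.2 and 385 CPM in MBD2a and 4.39, 4.11 and 5.84 CPM in MBD2aΔGR. Its log2 fold change was 5.10 ± 0.74 (SE, n = 3 per line, adjusted p = 7.13e-05, edgeR quasi-likelihood test), and s15 was the highest of the 6 libraries. *Dlx3*, a homeobox gene of trophoblast and epidermis, was at 24.7, 48.8 and 53.9 CPM in MBD2a and 3.59, 4.29 and 3.82 CPM in MBD2aΔGR, a log2 fold change of 3.44. *Tgm1*, a transglutaminase of cornified epithelium, and *Hpn*, a membrane serine protease, were higher by 3.40 and 4.19 on the log2 scale. *Magea9*, *Ldoc1*, *Epn3*, *Lrrc15*, *Tnnt3*, *Chil1*, *Aldh3b2* and *Khdc3* complete the 12 largest rises, with log2 fold changes from 3.40 to 4.83.

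The largest fall was that of *Fabp7*, the brain fatty acid-binding protein of radial glia. It was at 0.518, 0.177 and 0.28 CPM in MBD2a and at 45.2, 30.2 and 8.2 CPM in MBD2aΔGR. The log2 fold change was -6.41 ± 0.63 (SE, adjusted p = 2.82e-06, edgeR quasi-likelihood test). *Msx3* and *Pax3*, homeobox genes of the dorsal neural tube, had log2 fold changes of -5.50 and -4.90. *Neurog2*, a proneural transcription factor, was at 1.78, 4.09 and 0.382 CPM in MBD2a and 53.5, 39.2 and 44.6 CPM in MBD2aΔGR. *Slc26a7*, *Akap6*, *Pantr1*, *Nppc*, *Hes5*, *Epha3*, *Prdm13* and *Myt1* complete the 12 largest falls, with log2 fold changes from -5.40 to -4.45.

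**Figure D2:**
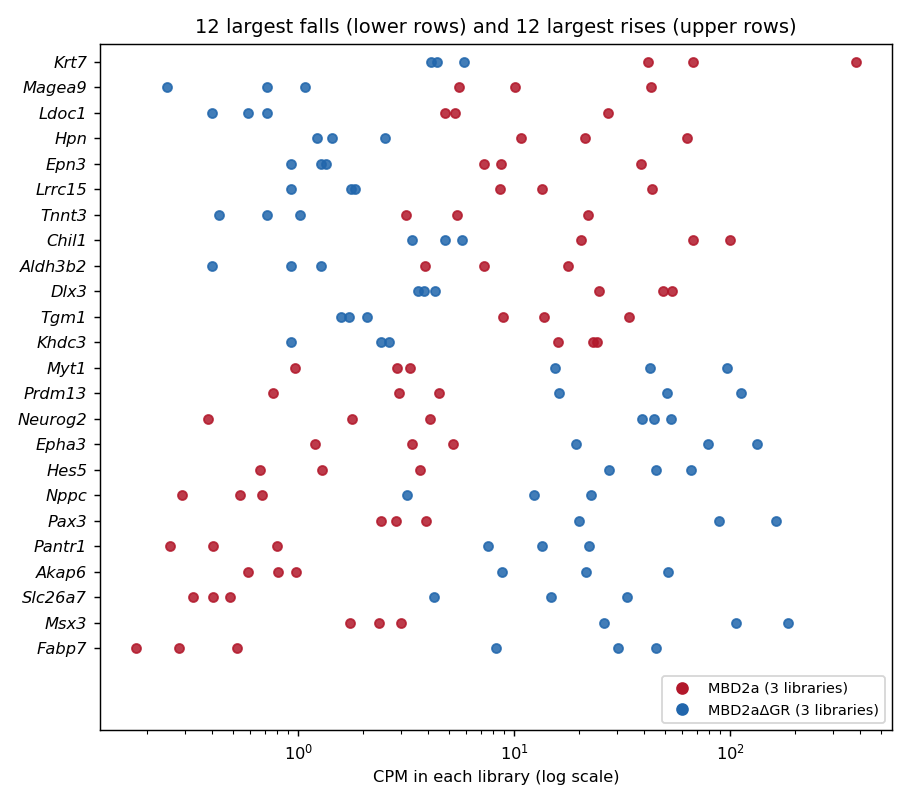
CPM (log axis) of the 12 genes with the largest rises and the 12 with the largest falls in each MBD2a (red) and MBD2aΔGR (blue) library. Absence of overlap between the lines was a condition for choosing these 24 genes, and s15 is the far right red point for *Krt7* at 385 CPM.

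Genes of the neural path were lower in MBD2a from progenitor to neuron. Of 17 radial glia and progenitor genes tested, 12 were lower and 0 higher, with a median log2 fold change of -1.89 beside -0.05 for all genes. *Nes*, the intermediate filament of neural progenitors, was at 63.4, 74.9 and 59.2 CPM in MBD2a and 315, 256 and 163 CPM in MBD2aΔGR. *Sox3*, a progenitor transcription factor, was lower by 2.75 on the log2 scale (-2.75 ± 0.26, SE, adjusted p = 2.18e-06, edgeR quasi-likelihood test), *Vim* had a log2 fold change of -3.17 and *Prom1*, a membrane protein of neuroepithelial cells, one of -1.74. *Sox2*, which ESCs and progenitors share, was at 103, 196 and 122 CPM against 326, 273 and 180 CPM and was not called, with a log2 fold change of -0.89.

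*Pax6*, the factor that marks these progenitors, was at 58.9, 58.7 and 9.99 CPM in MBD2a and 167, 151 and 148 CPM in MBD2aΔGR. The s15 library was far below the other MBD2a libraries, and the gene was called in the 24-library fit (log2 fold change -1.87 ± 0.44, SE, adjusted p = 0.00305, edgeR quasi-likelihood test) but not in the 6-library fit (adjusted p = 0.0817). *Pax6* was at 142 to 197 CPM in WT and 3.52 to 14.1 CPM in *Mbd3* KO.

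Proneural factors commit progenitors to become neurons. Of 21 tested, 18 were lower in MBD2a and 1 higher, the latter being *Eomes*, which trophoblast also expresses, and the median log2 fold change was -3.45. The 6-library fit called 14 lower and 0 higher, and 15 were lower and 0 higher without s15. *Neurog1* was at 2.65, 10.3 and 1.15 CPM in MBD2a and 113, 80.5 and 49.5 CPM in MBD2aΔGR. *Neurod4* was at 1.15, 3.62 and 0.204 CPM against 45, 28.9 and 28.5 CPM. The highest library of MBD2a stayed below the lowest of MBD2aΔGR for both genes.

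The Notch pathway, through which newborn neurons keep their neighbours in the progenitor state, held 12 lower and 0 higher genes of 22 tested (median -1.50). Among the ligands, *Dll1* was at 4.83, 10.1 and 4.51 CPM in MBD2a and 121, 78.7 and 44.6 CPM in MBD2aΔGR, a log2 fold change of -3.66 ± 0.34 (SE, adjusted p = 2.18e-06, edgeR quasi-likelihood test). Among the targets, *Hes5*, a repressor that holds progenitors, was at 1.29, 3.68 and 0.663 CPM against 65.7, 45.5 and 27.5 CPM, and *Nrarp*, a feedback inhibitor of the pathway, had a log2 fold change of -2.89. *Mfng*, a glycosyltransferase that modifies Notch receptors, was lower by 3.05 on the log2 scale (-3.05). Values of *Rbpj*, the DNA-binding partner of activated Notch, were close (176, 186 and 193 CPM against 201, 184 and 129 CPM) with a log2 fold change of 0.11 that was not called.

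Neuron genes followed, with 24 of 26 lower, 0 higher and a median of -3.13. *Tubb3*, the neuronal β-tubulin, was at 55.5, 85 and 25.1 CPM in MBD2a and at 790, 443 and 345 CPM in MBD2aΔGR. *Gap43*, a growth cone protein, had a log2 fold change of -3.37 ± 0.29 (SE, adjusted p = 1.66e-06, edgeR quasi-likelihood test), and the RNA-binding proteins *Elavl3* and *Elavl4* of -3.33 and -4.17. The neuronal surface markers by which the study counted committed cells in flow cytometry were lower as well. *Cd24a* was at 220, 209 and 170 CPM against 511, 406 and 374 CPM (log2 fold change -1.11) and *Ncam1* at 24.5, 17.8 and 10.6 CPM against 159, 93.3 and 48.2 CPM (log2 fold change -2.51). Both were called in both fits, although *Cd24a* was just under the fold threshold without s15 (-0.998) or s16 (-0.925).

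Genes that set position in the neural tube were mostly lower as well. Of 30 patterning factors, 22 were lower and 2 higher (median -2.19) in the 24-library fit and 12 lower and 1 higher in the 6-library fit. Of 32 *Hox* genes tested, 19 were lower and 2 higher (median -1.30), the latter *Hoxb1* and *Hoxd13* at the ends of their clusters. The 6-library fit called 14 *Hox* genes lower and 0 higher. The number called higher was 0 without s13 and 4 without s14 or s18. *Irx3* and *Irx5*, factors that divide the neural tube along its back-to-belly axis, had log2 fold changes of -2.38 and -3.44. *Hoxc6* was at 6.19, 5.66 and 1.83 CPM against 90.5, 57.2 and 20.8 CPM. In these lists the MBD2aΔGR libraries did not stand level. The summed level of the patterning factors was 1420, 879 and 558 CPM in s16, s17 and s18, against 163 to 260 CPM in MBD2a and 1190 to 1660 CPM in WT. The library with the most *Mbd2* counts, s18, had the lowest summed level of the MBD2aΔGR libraries in the neuron, progenitor, proneural, Notch, patterning and *Hox* lists, and s16, with the least, the highest.

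Retinoic acid genes went both ways, with 3 higher and 2 lower of 17 (median -0.23), beside 10.6% called higher and 8.02% called lower over all genes. The 6-library fit called 1 higher and 0 lower, and 1 of each was called without s16. *Crabp1* and *Rarb*, a binding protein and a receptor, were lower, while *Rarg*, *Tgm2* and *Aldh1a2* were higher. *Tgm2*, a retinoid-induced transglutaminase, was at 168, 186 and 390 CPM in MBD2a and 37.9, 69.4 and 84.8 CPM in MBD2aΔGR (log2 fold change 1.95). *Cyp26a1*, which degrades retinoic acid, was at 961, 826 and 762 CPM against 560, 619 and 1380 CPM and was not called.

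Pluripotency genes were higher in MBD2a where they changed. Of 26 tested, 8 were higher and 0 lower, with a median log2 fold change of 1.44. *Esrrb*, a nuclear receptor of naive ESCs, was at 42.2, 71.7 and 91.1 CPM in MBD2a and 6.91, 16.6 and 14.7 CPM in MBD2aΔGR (log2 fold change 2.42 ± 0.55, SE, adjusted p = 0.00252, edgeR quasi-likelihood test). *Tfcp2l1*, another factor of naive ESCs, had a log2 fold change of 2.15, *Tdgf1*, a Nodal co-receptor, one of 2.38 and *Otx2*, a factor of primed cells, one of 1.36. The core factors *Pou5f1* and *Nanog* did not pass the test. *Pou5f1* was at 72.6, 112 and 121 CPM against 14.8, 39.3 and 50.2 CPM, without overlap (log2 fold change 1.55, adjusted p = 0.115, edgeR quasi-likelihood test), and *Nanog* at 46.1, 94.7 and 91.6 CPM against 6.11, 27.6 and 29 CPM (adjusted p = 0.193). In the *Pou5f1* values the WT libraries themselves ranged from 5.26 to 38.7 CPM. Of 13 Nodal and Lefty genes 1 was higher, the ligand *Nodal*, and 1 lower, the receptor *Acvr2a* (log2 fold change -1.01), with a median of 0.36. These 15.4% lay near the 18.6% called over all genes. No member was lower under RLE scaling, in DESeq2, in the 6-library fit or without s14, s15, s16 or s17. *Nodal* lost its call without s14, s15, s16 or s18 (adjusted p from 0.0537 to 0.127, edgeR quasi-likelihood test).

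*Klf4*, a pluripotency factor that epithelia and endoderm also express, was at 43.8, 22.5 and 61.8 CPM in MBD2a and 13.2, 14 and 152 CPM in MBD2aΔGR. It was not called, with a log2 fold change of -0.49, and without s18 it was higher in MBD2a by 1.65 (adjusted p = 0.00124, edgeR quasi-likelihood test). Without s18 the pluripotency list had 14 higher genes in place of 8.

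Endoderm genes set s18 apart. Of 24 primitive and parietal endoderm genes, 3 were lower in MBD2a and 0 higher (median -0.87), and of 18 yolk sac plasma proteins 2 were lower and 0 higher (median -1.54). These were 12.5% and 11.1% of the lists, beside 18.6% called over all genes in either direction and 8.02% called lower. The 6-library fit called none of either list, at 5.88% and 5.11% of genes called higher and lower over the whole table. The summed level of the endoderm list was 30400 CPM in s18, 2380 and 1990 CPM in s16 and s17, and 6250, 1710 and 6690 CPM in MBD2a. *Col4a1*, a basement membrane collagen, was at 1610, 286 and 2270 CPM in MBD2a and at 672, 491 and 10100 CPM in MBD2aΔGR. *Gata4*, which specifies this lineage, was at 51.3, 8.4 and 80.7 CPM against 12.9, 12.8 and 291 CPM, and *Dab2*, an endocytic adaptor of the same lineage, at 43.9, 20.9 and 92.9 CPM against 15.8, 17.4 and 242 CPM. The lines overlapped in these genes. *Gata6* overlapped as well, at 54.5, 15.8 and 32.9 CPM against 12.4, 14.4 and 138 CPM. *Sox17*, another marker fixed for this lineage, was at 16.3, 9.07 and 38.9 CPM against 63.9, 42.5 and 135 CPM. The lines did not overlap in *Sox17*, which the 24-library fit called lower in MBD2a (log2 fold change -1.9). Without s18 the direction turned, and 15 endoderm genes were higher and 1 lower, with *Col4a1* at a log2 fold change of 1.26 and *Col4a2* at 1.30, and 12 plasma protein genes were higher and 0 lower. The other way, 7, 6 and 8 plasma protein genes were lower without s15, s16 and s17, and 8 endoderm genes without s17. The endoderm levels of s18 stood beside lower summed neural levels and a higher summed pluripotency level. The latter was 1120, 1490 and 2190 CPM in s16, s17 and s18. Not every pluripotency gene shared this, as *Esrrb* was at 16.6 CPM in s17 and 14.7 CPM in s18. The part of the endoderm levels in those values was not tested. In bulk samples, fewer cells of a type and less RNA per cell cannot be told apart.

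Trophoblast genes were higher in MBD2a. Of 25 tested, 16 were higher and 1 lower, with a median of 2.49. *Gata2*, a transcription factor of trophoblast giant cells, was at 38.9, 21.7 and 66.3 CPM in MBD2a and 8.36, 13.7 and 6.98 CPM in MBD2aΔGR (log2 fold change 2.13 ± 0.36, SE, adjusted p = 0.000228, edgeR quasi-likelihood test). *Esx1*, a placental homeobox gene, was at 34, 49.3 and 81.6 CPM against 5.62, 12.1 and 9.86 CPM. *Hand1* and *Elf5*, markers of trophoblast fixed for this comparison, reached 20.5 and 4.08 CPM in s15 but only 1.15 to 3.03 CPM and 0.678 to 1.15 CPM in the other MBD2a libraries. *Cdx2*, which defines early trophoblast, was at 4.35, 4.18 and 6.91 CPM against 2.21, 1.49 and 8.03 CPM, and *Gata3* at 31.9, 14.3 and 23 CPM against 9, 14 and 15.5 CPM, and neither was called. Their summed level was 1960, 1740 and 6560 CPM in MBD2a, 894, 966 and 1780 CPM in MBD2aΔGR, 673 to 1360 CPM in WT and 7230 to 9430 CPM in *Mbd3* KO. Without s15 the list had 7 higher and 1 lower genes, without s16 11 higher and 0 lower, and the 6-library fit called 7 higher and 0 lower.

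Epithelial junction genes held 7 higher and 0 lower of 13 (median 1.06). *Cdh1*, the epithelial cadherin that ESCs also use, was at 508, 563 and 710 CPM in MBD2a and 148, 201 and 205 CPM in MBD2aΔGR, and *Cldn4*, a tight junction protein, at 347, 488 and 582 CPM against 135, 196 and 166 CPM. Both were called in both fits, with log2 fold changes of 1.68 and 1.51. The list had 4 higher genes without s15 and 12 without s18. *Grhl2* and *Ovol1*, transcription factors that maintain epithelia, had log2 fold changes of 1.74 and 2.10.

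**Figure D3:**
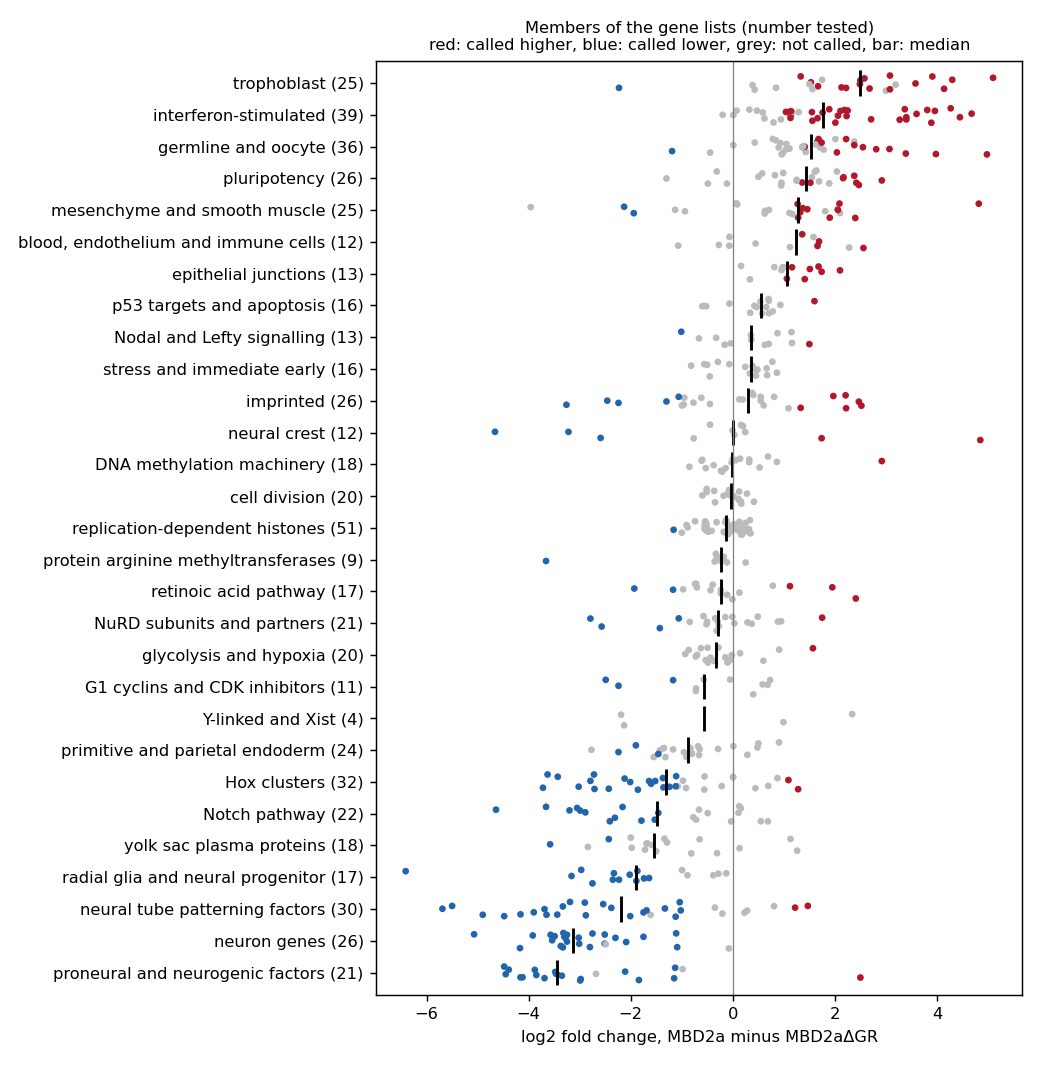
Log2 fold change (MBD2a minus MBD2aΔGR, horizontal axis) of every tested member of the 29 gene lists that have one, in order of the list median (black bar), with genes called higher in red, called lower in blue and not called in grey. Medians run from -3.45 for proneural factors to 2.49 for trophoblast genes, and the 20 cell division genes are all grey and close to 0.

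Interferon-stimulated genes, which cells switch on against viruses, gave more rises than any other list examined. Of 39 tested, 28 were higher in MBD2a and 0 lower (71.8%, median 1.76), beside 10.6% called higher over all genes. *Oas1a*, which makes the activator of RNase L, was at 3.57, 5.24 and 19.4 CPM in MBD2a and 0.522, 1.07 and 1.33 CPM in MBD2aΔGR. *Zbp1*, a nucleic acid sensor, was at 2.19, 3.77 and 11 CPM against 0.399, 0.715 and 0.499 CPM. *Tap1*, a transporter of peptides for antigen presentation, was at 33.5, 30.5 and 45.5 CPM against 15.7, 18.5 and 15.9 CPM (log2 fold change 1.13 ± 0.16, SE, adjusted p = 7.19e-05, edgeR quasi-likelihood test), and *Ddx58*, the RNA sensor RIG-I, had a log2 fold change of 1.55. The s15 library was the highest for each of these 4 genes, and without it *Tap1* had a log2 fold change of 0.95. The summed level was 811, 989 and 1780 CPM in s13, s14 and s15 against 406, 546 and 653 CPM in MBD2aΔGR, 340 to 513 CPM in WT and 1710 to 2120 CPM in *Mbd3* KO. Without s15, 14 genes of the list were called higher, and the 6-library fit called 13.

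Of the 39 genes, 29 had a promoter (250 bases before to 50 after the start, RefSeq, GRCm38.p6). The letters GAAANNGAA, on either strand, stood in 17 of them (58.6%) and in 6.97% of the promoters of all 12542 tested genes that had one. The match was in 12 of 20 promoters of called and 5 of 9 of uncalled list members, so members with and without it were found in both groups. The bases upstream of the start are given for *Oas1a* (chr5:120907526-120907775, minus strand) and *Gbp3* (chr3:142559794-142560043, plus strand), which have overlapping matches near the start, with the matches in capitals.
Oas1a: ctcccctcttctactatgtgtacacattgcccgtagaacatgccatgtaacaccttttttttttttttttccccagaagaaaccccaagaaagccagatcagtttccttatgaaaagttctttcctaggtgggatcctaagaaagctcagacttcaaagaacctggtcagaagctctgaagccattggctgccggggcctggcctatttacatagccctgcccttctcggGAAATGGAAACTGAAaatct
Gbp3: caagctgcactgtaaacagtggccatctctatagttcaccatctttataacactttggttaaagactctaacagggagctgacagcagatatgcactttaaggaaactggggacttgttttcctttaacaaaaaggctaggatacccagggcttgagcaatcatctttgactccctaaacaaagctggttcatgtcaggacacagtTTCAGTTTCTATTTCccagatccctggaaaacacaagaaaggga
*Gbp3*, an interferon-induced GTPase, was at 3.89, 6.3 and 10.9 CPM in MBD2a and 1.47, 2.62 and 1.19 CPM in MBD2aΔGR (log2 fold change 2.01).

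Germline and oocyte genes, many of which are kept silent in somatic cells by promoter methylation, had 14 higher and 1 lower member of 36 (median 1.53). *Sohlh1*, a transcription factor of early germ cells, was at 8.4, 9.63 and 15.6 CPM in MBD2a and 0.123, 0.506 and 0.415 CPM in MBD2aΔGR. Its log2 fold change of 4.98 ± 0.43 (SE, adjusted p = 1.67e-06, edgeR quasi-likelihood test) had the lowest adjusted p of the list. *Khdc3*, a subunit of the oocyte's subcortical complex, was at 16, 24.1 and 23.2 CPM against 0.921, 2.41 and 2.63 CPM. *Dazl*, an RNA-binding protein of germ cells, was at 16.2, 21.7 and 21.7 CPM against 1.57, 6.55 and 4.65 CPM, with a log2 fold change of 2.22 ± 0.84 (SE, adjusted p = 0.0478 in the same test). *Dazl* lost its call when any one of the 6 libraries was left out (adjusted p from 0.0528 to 0.157) and in DESeq2 (0.0543). *Meioc* and *Sycp2*, which act in meiosis, had log2 fold changes of 1.68 and 2.04. The summed level was 376, 419 and 424 CPM in MBD2a and 130, 198 and 149 CPM in MBD2aΔGR, apart in every library, with 671 to 749 CPM in *Mbd3* KO and 97.4 to 198 CPM in WT. Here s15 was close to s13 and s14, although 7 genes were called higher without it and 9 without s16.

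The E-box CACGTG stood in 14 of the 33 promoters of the list (42.4%), beside 9.72% of all promoters. It was in 2 of 14 promoters of called and in 12 of 19 of uncalled members. *Sohlh1* (chr2:25847249-25847498, minus strand) has 3 matches, given in capitals.
Sohlh1: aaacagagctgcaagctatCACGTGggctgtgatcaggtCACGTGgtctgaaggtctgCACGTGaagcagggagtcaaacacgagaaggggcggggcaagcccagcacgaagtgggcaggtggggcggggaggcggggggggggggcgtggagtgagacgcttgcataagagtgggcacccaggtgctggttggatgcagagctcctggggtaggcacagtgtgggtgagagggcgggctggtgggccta
Other letters were searched too. The octamer ATGCAAAT stood in 1.51% of all promoters, 1.53% of those called higher and 2.18% of those called lower, and in 9 of 45 promoters of the histone list (20%). The E-boxes CAGCTG and CAGATG stood in 15.6% and 11.9% of all, 21.6% and 15.2% of those called higher and 18.8% and 13.1% of those called lower. In the proneural list 4 of 14 promoters of called members held CAGCTG and 2 of 14 held CAGATG.

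Promoters of genes higher in MBD2a held fewer CpGs, the dinucleotides whose methylation MBD2 reads. The median was 10 CpGs per 300 bases for genes called higher, 18 for genes called lower and 19 for all. Of 1298 genes with up to 4 CpGs, 23.2% were called higher and 7.01% lower, while of 6232 genes with 20 or more, 5.81% were called higher and 7.27% lower. Level moved with this split, at a median of 0.85 log2 CPM for genes called higher against 4.46 for all with a promoter. Among the 8338 genes with a mean of at least 3 log2 CPM, the medians were 21 CpGs for genes called higher, 22 for genes called lower and 22 for all. Methylation itself was not measured here. The range is shown by *Khdc3* (chr9:73102148-73102397, plus strand), higher in MBD2a and without a CpG, and by *Myt1* (chr2:181763082-181763331, plus strand) and *Hes5* (chr4:154960673-154960922, plus strand), lower in MBD2a and with 2 and 41 CpGs in the 300 bases, 2 and 32 of them in the 250 shown in capitals.
Khdc3: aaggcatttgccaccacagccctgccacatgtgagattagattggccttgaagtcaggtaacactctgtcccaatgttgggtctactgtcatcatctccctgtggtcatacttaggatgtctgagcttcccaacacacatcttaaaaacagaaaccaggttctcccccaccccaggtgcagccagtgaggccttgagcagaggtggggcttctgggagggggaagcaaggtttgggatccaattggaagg
Myt1: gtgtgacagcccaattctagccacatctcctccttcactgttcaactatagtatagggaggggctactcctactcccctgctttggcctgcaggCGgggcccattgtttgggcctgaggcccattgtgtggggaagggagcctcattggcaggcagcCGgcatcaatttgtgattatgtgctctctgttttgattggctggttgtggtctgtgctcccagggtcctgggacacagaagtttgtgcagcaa
Hes5: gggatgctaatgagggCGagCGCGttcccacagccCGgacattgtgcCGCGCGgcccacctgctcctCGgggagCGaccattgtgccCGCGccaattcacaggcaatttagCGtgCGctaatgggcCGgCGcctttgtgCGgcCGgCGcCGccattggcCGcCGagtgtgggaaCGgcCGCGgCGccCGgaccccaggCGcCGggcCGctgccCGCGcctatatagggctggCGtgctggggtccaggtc

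Mesenchyme genes gave 10 higher and 2 lower of 25 (median 1.27), while *Mbd3* KO against WT gave 4 higher and 9 lower (median -0.12). The 2 genes lower in MBD2a both lie on chromosome 1. The summed level of the list was 277 to 401 CPM in MBD2a, within the 263 to 708 CPM of WT, and 116 to 190 CPM in MBD2aΔGR, below every library of the other lines. *Bgn*, a matrix proteoglycan, was at 4.06, 4.68 and 11.2 CPM in MBD2a and 0.184, 0.268 and 0.249 CPM in MBD2aΔGR, with a WT mean of 4.32 CPM and a log2 fold change of 4.82 ± 0.70 (SE, adjusted p = 7.13e-05, edgeR quasi-likelihood test). *Tagln*, an actin-binding protein of smooth muscle, was at 59.4, 51.3 and 41.6 CPM against 9.68, 21.4 and 5.35 CPM, and *Pdgfrb*, a growth factor receptor, at 13.7, 26 and 38.5 CPM against 4.3, 6.7 and 3.85 CPM. The defining markers were low in both lines. *Col1a1* was at 3.41 to 4.42 CPM in MBD2a and 0.665 to 1.76 CPM in MBD2aΔGR, below the 12.4 to 61.8 CPM of WT, and *Col3a1* and *Twist1* were called in neither fit, while *Acta2*, at 1.43 to 2.83 CPM in MBD2a and 0.249 to 0.804 CPM in MBD2aΔGR, was called higher by the 6-library fit alone.

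Markers of other cells the cultures could hold were few. Of 12 blood, endothelium and immune genes 4 were higher and 0 lower (*Pecam1*, *Cdh5*, *Tek* and *Gata1*), or 33.3% beside 10.6% called higher over all genes. Summed levels of the list were 33.7 to 54.5 CPM in MBD2a, 14.3 to 31.7 CPM in MBD2aΔGR and 53.9 to 72.5 CPM in WT. The 4 calls became 1 without s15, 2 without s16 and 2 in the 6-library fit. *Ptprc*, which marks blood cells, had 0 counts in all 6 libraries. *Gata1* was near the level of 3 counts, at 0.23, 0.412 and 0.765 CPM in MBD2a and 0.0614, 0.0298 and 0.138 CPM in MBD2aΔGR. The markers *Kdr* and *Hbb-y* were not called, with log2 fold changes of -0.273 and -0.0667. Of 12 neural crest genes 2 were higher, *Erbb3* and *Sox10*, and 3 lower, among them *Foxd3* and *Tfap2b* (median 0.01). These were 41.7% of the list, beside 18.6% called over all genes. *Foxd3*, a factor of early neural crest and of ESCs, was at 1.73, 2.77 and 0.586 CPM in MBD2a and 20.7, 11.2 and 14.8 CPM in MBD2aΔGR.

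Imprinted genes, expressed from 1 parental copy, went both ways, with 6 higher and 5 lower of 26 (median 0.29), or 42.3% beside 18.6% called over all genes. *H19*, a maternally expressed RNA, was at 1040, 1650 and 4080 CPM in MBD2a and 257, 362 and 561 CPM in MBD2aΔGR, with 1050 CPM as the WT mean. *Slc38a4*, an amino acid transporter, had a log2 fold change of 2.21 and *Peg10*, a retrotransposon-derived gene needed in the placenta, one of 1.33 that fell under the threshold without s15 (0.52). The list had 7 called genes without s15 or s16. *Peg12* was lower, with a log2 fold change of -2.46. *Cdkn1c*, an inhibitor of cell division, was at 150, 134 and 49 CPM in MBD2a and 750, 407 and 420 CPM in MBD2aΔGR (log2 fold change -2.24 ± 0.43, SE, adjusted p = 0.000732, edgeR quasi-likelihood test), while WT and *Mbd3* KO had means of 794 and 790 CPM. The test of that difference between contrasts gave an adjusted p of 0.0568 in the edgeR quasi-likelihood fit.

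Of 21 NuRD subunits and partners, 1 was higher, *Chd5*, and 4 lower, *Mbd2*, *Hdac2*, *Sall2* and *Sall3* (median -0.30), and these 23.8% lay near the 18.6% called over all genes. *Hdac2*, a deacetylase of the complex, was at 125, 120 and 95.4 CPM in MBD2a and 273, 238 and 199 CPM in MBD2aΔGR (log2 fold change -1.06 ± 0.13, SE, adjusted p = 1.98e-05, edgeR quasi-likelihood test), and just under the fold threshold without s15 (-0.95) or s16 (-0.91). Without s18, 3 of the genes were higher and 5 lower. *Chd5*, a remodeler of neural and germ cells, was at 24.1, 20.1 and 14.3 CPM against 4.33, 8.22 and 4.85 CPM. *Chd4*, the main remodeler, was at 882, 925 and 681 CPM against 1090, 968 and 697 CPM and was not called. Of 9 arginine methyltransferase genes, the class that modifies GR stretches, 1 was called, the neural *Prmt8*, with a log2 fold change of -3.66, while *Carm1* had one of -0.31. Of 18 genes of the DNA methylation machinery 1 was called, *Dnmt3l*, which was higher and is also a pluripotency gene, and *Dnmt1* and *Dnmt3a* had log2 fold changes of 0.14 and -0.23. In that list 0 genes were called by the 6-library fit or without s15, s16 or s17. Without s13 or s18, 2 were higher and 1 lower.

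Genes of cell division, stress and metabolism were examined beside the 18.6% called over all genes. None of 20 cell division genes was called by the edgeR quasi-likelihood test or by DESeq2, and 3 had an unadjusted p under 0.05 in the former, with log2 fold changes from -0.60 to 0.41 (*Top2a* -0.37, *Mcm3* 0.17). Of 11 G1 cyclins and CDK inhibitors 3 were lower (27.3%) and 0 higher, with 3 lower and 2 higher without s18. Among them was *Ccnd2*, at 170, 196 and 66.5 CPM against 1080, 739 and 604 CPM. Of 16 p53 targets 1 was called higher, *Perp*, a desmosome protein of epithelia, with a median of 0.56 over the list. At an unadjusted p under 0.05 in the edgeR test, 11 of the p53 targets were higher and 3 lower, so most shifts lay below the fold threshold. Of 16 stress genes none was called by edgeR or DESeq2 (median 0.36), while 4 higher and 2 lower genes had an unadjusted p under 0.05 and 5 were called higher without s18. Of 20 glycolysis genes 1 was higher (median -0.33), and their summed level was 4310, 11700 and 9050 CPM in MBD2a and 9770 to 11000 CPM in MBD2aΔGR, so that s13 was the lowest. Of 51 replication-dependent histone genes 1 was called lower (median -0.14), while 0 higher and 13 lower genes had an unadjusted p under 0.05 in the edgeR test. *H2ac7* and *H2ac12*, near-identical copies that could share reads, had almost the same values in each library and are uncertain. Of 4 Y-linked and *Xist* genes none was called by edgeR and 2 were lower by DESeq2, and 2 had an unadjusted p under 0.05, 1 in each direction.

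The question of how far MBD2a falls between its reference states was asked with the *Mbd3* KO response. *Mbd3* KO against WT, which shares no library with the present comparison, called 5609 genes (33.8%). Of the 3080 genes called between MBD2a and MBD2aΔGR, 2744 were called in the same direction there, which is 89.1% of the first list and 48.9% of the second, and 7 in the opposite direction. Across all 16582 genes, which are not independent replicates, Spearman's correlation of the log2 fold changes was 0.794. Over the 5609 genes the median ratio of the fold changes was 0.595 on the log2 scale, and 95% had the same sign.

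**Figure D4:**
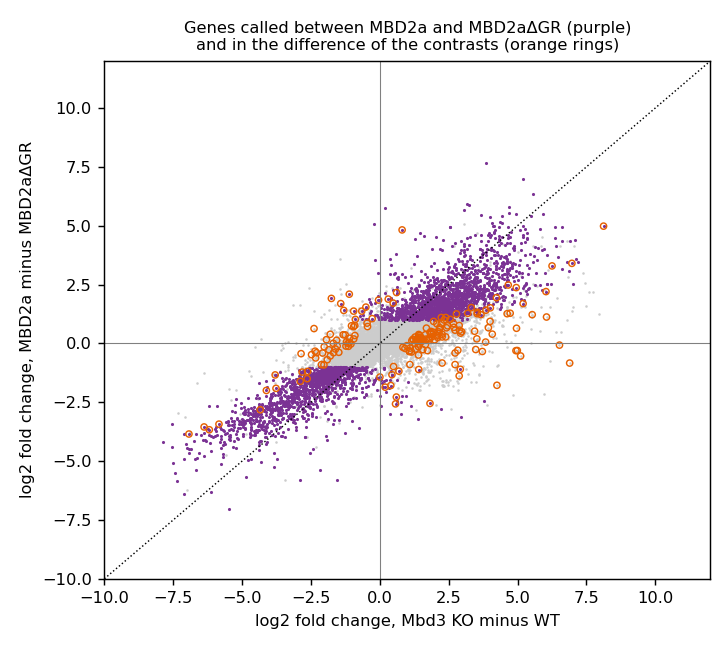
Log2 fold change of MBD2a minus MBD2aΔGR (vertical axis) against that of *Mbd3* KO minus WT (horizontal axis) for the 16582 genes tested, with the 3080 called genes in purple, the 184 genes called in the difference of the contrasts as orange rings and a dotted line of equality. Of the called genes 2744 lie at the lower left or upper right, and over the genes called in *Mbd3* KO the median ratio of the fold changes is 0.595.

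A position along this response was given to each library as the mean log2 CPM over the genes called higher in *Mbd3* KO, less the mean over those called lower, with the WT mean at 0% and the *Mbd3* KO mean at 100%. The MBD2a libraries stood at 72.4%, 74.1% and 98.1% and the MBD2aΔGR libraries at 2.16%, 23% and 43.9%. The means were 81.5% ± 14.4 and 23% ± 20.9 (SD, n = 3), and the difference of 58.5 percentage points had a two-sided exact permutation p of 0.1, the smallest that 3 against 3 libraries can give. The groups did not overlap, but s15 reached the *Mbd3* KO libraries (93.5% to 112%), s16 lay among the WT libraries (-14.4% to 16.2%), s17 just above them and s18 between. Genes lower in *Mbd3* KO placed MBD2a at 91.8% ± 13.1 (SD) and genes higher in it at 71.8% ± 15.6 (SD).

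**Figure D5:**
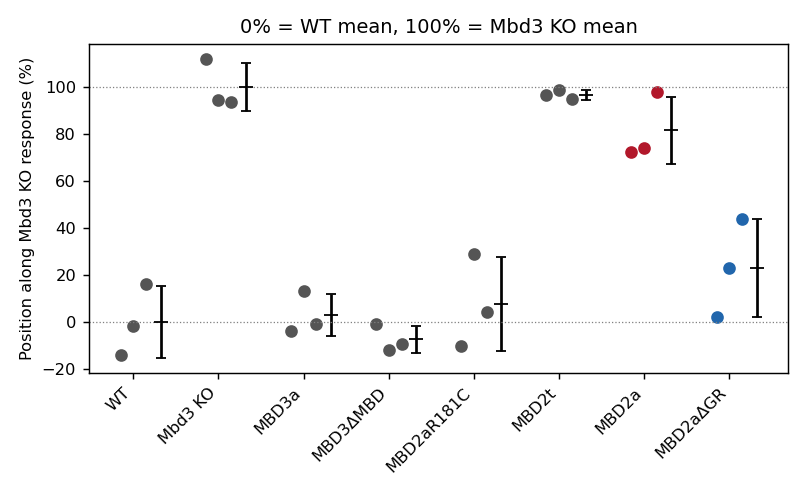
Position of each of the 24 libraries (points) along the *Mbd3* KO response in percent, by line, with the mean and SD of 3 libraries beside them and dotted lines at the WT (0%) and *Mbd3* KO (100%) means. MBD2a (red) lies at 72.4% to 98.1% and MBD2aΔGR (blue) at 2.16% to 43.9%, with the 3 MBD2t libraries at 94.7% to 98.9%.

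The test of the difference between the contrasts called 184 genes (1.11%), 63 with a more positive and 121 with a more negative fold change in MBD2a against MBD2aΔGR, and 3495 genes had an unadjusted p under 0.05. Among list members these included *Bgn*, *Thy1* and *Mfap2* of mesenchyme and *Crabp2* on the positive side, and *Mbd2*, *Sohlh1*, *Khdc3*, *Dll4*, *Gli1*, *Trf*, *Ets2*, *Csf1r* and the stress genes *Fos*, *Junb*, *Hspa1a* and *Hspa1b* on the negative side. *Sohlh1* was among them because its fold change was larger in *Mbd3* KO (log2 fold change 8.12), in the same direction. This count depended on the libraries, falling to 32 without s14 and to 5 in a fit of the 12 libraries of the 4 lines, and rising to 1048 without s16 and 709 without s15.

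Of the genes called in both fits and in this difference, 12 were not called in *Mbd3* KO against WT, 7 of them higher and 5 lower. Those with a mean of at least 1 log2 CPM and no overlap between the lines were *Nol3* and *Pnck*, higher, and *Mbd2*, *Dll4* and *Fbxo32*, lower. *Pnck*, a calcium-dependent kinase, was at 4.78, 5.66 and 5.33 CPM in MBD2a and 1.5, 2 and 1.33 CPM in MBD2aΔGR. *Nol3*, an inhibitor of cell death, had a log2 fold change of 1.05, which was just under the threshold without s13 (0.99) or s16 (0.97), against -0.28 in *Mbd3* KO. *Dll4*, a Notch ligand, was at 0.604, 1.27 and 1.86 CPM against 6.08, 3.87 and 3.21 CPM, and *Fbxo32*, a ubiquitin ligase subunit, had a log2 fold change of -1.43 (adjusted p = 0.000128, edgeR quasi-likelihood test) beside 0.00 in *Mbd3* KO (0.00236). Absence of overlap was a condition for naming these 5 genes and is no further result.

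The strand setting of the counting was not given in the sources used here, so values of genes whose exons overlap another annotated gene are uncertain. Of the genes named above, these are *Hes5*, *Dll1*, *Dll4*, *Pax6*, *Ncam1*, *Irx3*, *Prom1*, *Chd5*, *Carm1*, *Tap1*, *Tgm2*, *Tagln*, *Nol3*, *Fbxo32*, *Col4a1*, *Col4a2*, *Grhl2*, *Dnmt3a*, *Khdc3*, *Tfcp2l1*, *Foxd3*, *Xist*, *H19*, *Top2a*, *Gata3*, *Gata6*, *Acvr2a*, *Dab2*, *Col1a1*, *Dnmt3l*, *Gli1*, *Trf*, *Csf1r* and *Hspa1a*.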

How the data were processed

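Poly(A) RNA-seq libraries of NPCs were analysed, and the ChIP samples were not used here. Per the paper's methods and the labels, the authors trimmed reads, aligned them with STAR to mm9 and counted reads per gene with QuasR, which gave the deposited table of raw counts, 25400 genes long. Columns were assigned to lines by name. The column name of the point mutant differs from the label MBD2aR181C, and it was taken as that line because it is the only such mutant. Genes passing filterByExpr were fitted after TMM scaling with edgeR 4.0.16 (quasi-likelihood test) in R 4.3.3 (Benjamini-Hochberg adjustment, limma 3.58.1 loaded), with all 24 libraries in a single fit. The standard error was taken as the size of the log2 fold change over the root of its F statistic. On simulated counts for 16494 genes the test recovered 17, 43, 48 and 50 of 50 genes changed by 2-, 4-, 8- and 16-fold and called 16 unchanged genes. Total counts per library lay between 27993858 and 49392806, and limits from 3 counts cover counting error only.

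The 30 gene lists (29 with tested members, since no mitochondrial transcript is among the genes used) and all rules were chosen with earlier results of these data known. Named genes were the 12 largest rises and falls called in both fits with a mean of at least 1 log2 CPM and no overlap, up to 4 called members with the lowest adjusted p and the 2 with the highest level of each list, genes the study names, the up to 5 per direction called in the difference of the contrasts but not in *Mbd3* KO, and fixed cell type markers. Other called list members (*Eomes*, *Hoxb1*, *Hoxd13*, *Crabp1*, *Rarb*, *Rarg*, *Aldh1a2*, *Acvr2a*, *Gbp3*, *Sox10*, *Tfap2b*, *Sall2*, *Dnmt3l* and those of the difference) were chosen after their values were seen. Promoters are RefSeq's, matched by Entrez identifier for 12542 genes, without chromosome 18. Alternatives were other scalings, filters, thresholds, tests (DESeq2 1.42.0, glmTreat) and libraries. The legacy quasi-likelihood fit and the 5 libraries without s18 were chosen after seeing the data. Some list members are counted in their lists but not reported here by name.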

Additional observations from a re-analysis of the deposited data

How the results depend on the processing

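The count of 3080 genes called between MBD2a and MBD2aΔGR stayed within 1.5 times under RLE, upper quartile and library-size scaling, other filters, DESeq2, the legacy fit and the fit without MBD2t. It was 1699 with only the 6 libraries, 5755 with no fold change threshold and 1061 with glmTreat, and 2214 to 3847 when each library was left out. Library-size scaling gave 2055 higher and 1123 lower genes. Of the 3080 calls, 1713 held in all 6 fits without a library, and 4 were called in the opposite direction in at least one. The 2744 calls shared with *Mbd3* KO became 1538 with each contrast on its own 6 libraries and 5077 with no fold change threshold, and 1910 to 3418 without a library. The 184 calls of the difference became 5 in the 12 libraries of the 4 lines, 62 without s13, 32 without s14, 709 without s15, 1048 without s16 and 55 without s18. The difference of position, 58.5 points, was 48 to 68.9 without a library. *Col4a1* (1.26), *Col4a2* (1.30) and *Klf4* (1.65) turned to higher in MBD2a without s18. The causes were not tested beyond the libraries left out. Of 1296 refitted values of named genes, 1239 kept their side of the threshold, with the same direction where the gene was called. A change of direction in a gene called in neither fit was not counted, as for *Mbd3* (0.03 in the main fit and -0.105 without s13). Of 261 recounts of the gene lists 63 moved by over 1.5 times. *Mbd2* kept its call in each of its 9 refits. The self-test recovered 17 of 50 changes of 2-fold. Changes of that size lie at the fold threshold itself, so they often go uncalled whatever the power of the test. No paired analysis was possible because the columns carry library numbers but no replicate numbers.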
